A study of Mus musculus with 21 samples.

Results

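The Mef2 family of the mouse consists of 4 genes, Mef2a, Mef2b, Mef2c and Mef2d, out of 49997 in the gene table used here. Each was taken by its symbol, and a peak was assigned to it when it lay within 1 kb of the gene span of the mouse build GRCm38. The data are CUT&RUN peak lists from C2C12, a mouse myoblast line. CUT&RUN releases and sequences the DNA around an antibody-bound protein. The antibodies were directed against PSME3, a nuclear proteasome activator, and H3K4me3, a histone mark of active promoters. Cycling cells were grown in 20% FBS, and were frozen in 10% DMSO without fixation. They gave 3 libraries per antibody, which the study describes as biological replicates, and 1 pooled list per antibody. Day 2 cells were likewise grown in 20% FBS to confluency, and then kept for 48 h in 2% horse serum. They gave 1 library per antibody in each of 4 preparations, which combined fresh or frozen storage with native or crosslinked chromatin. Frozen day 2 cells were also in 10% DMSO. Crosslinking was done for 5 min in 0.1% formaldehyde, with glycine at 12.5 mM. The labels name no mutation or knockdown in these cells.

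MEF2 proteins are transcription factors of the MADS-box class. They bind an A/T-rich element, often together with the myogenic factors of the MyoD family, and drive genes of muscle differentiation. In resting or undifferentiated cells class IIa histone deacetylases hold them inactive, and p38 and calcium signals release them. H3K4me3 forms peaks around active start sites, and in mammals these sites are often rich in CpG, the dinucleotide at which most DNA methylation occurs.

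The day 2 libraries are single libraries of different preparations, not replicates of one. Only the frozen native one was prepared as the cycling cells were, so for the other 3 preparations stage and preparation cannot be told apart. The 7 H3K4me3 lists held 14372 to 40999 peaks. Cycling replicate 2 stood apart, with 40999 peaks of a median width of 662 bp, against 18077 and 19365 peaks of 1781 and 1784 bp in replicates 1 and 3. The cycling PSME3 lists held 776 to 3070 peaks and the day 2 ones 18 to 186. Read numbers are not part of the lists and the depth is therefore unknown. The fold enrichment (signal over the background estimated by the peak caller) was compared only as a percentile within its own list. The cells carried the mark of their label: all 5 myoblast markers (Myod1, Myf5, Cdh15, Des and Chrna1) had H3K4me3 peaks in all 7 libraries, and 5 of 6 markers of other lineages had none in any. The exception was Neurod1, with a peak in 1 cycling and 1 day 2 library.

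The 4 genes have 6 listed start sites, and 4 of these had an H3K4me3 peak within 1 kb in the pooled cycling list. The list of starts may be incomplete, as it holds 1 for the 10 transcripts of Mef2a and 3 for the 34 of Mef2c. The sequences from 250 bases before to 30 bases after each start are shown because the marked and the unmarked starts differ in their number of CpG, which is set in capitals. They are RefSeq sequences of GRCm38.p6, written 5′ to 3′ in the direction of transcription. All 4 genes were matched by symbol. In the order given, the windows lie at chr7:67372829-67373108, - strand, then chr8:70152511-70152790, + strand, then chr13:83503784-83504063, + strand, then chr13:83523406-83523685, + strand, then chr13:83573357-83573636, + strand, and chr3:88142122-88142401, + strand.
Mef2a start 1: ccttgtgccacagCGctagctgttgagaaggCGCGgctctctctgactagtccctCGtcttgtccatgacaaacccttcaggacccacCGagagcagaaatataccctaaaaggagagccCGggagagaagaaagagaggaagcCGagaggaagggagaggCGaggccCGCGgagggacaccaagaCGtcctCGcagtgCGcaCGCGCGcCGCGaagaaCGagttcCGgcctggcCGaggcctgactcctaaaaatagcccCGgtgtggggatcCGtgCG
Mef2b start 1: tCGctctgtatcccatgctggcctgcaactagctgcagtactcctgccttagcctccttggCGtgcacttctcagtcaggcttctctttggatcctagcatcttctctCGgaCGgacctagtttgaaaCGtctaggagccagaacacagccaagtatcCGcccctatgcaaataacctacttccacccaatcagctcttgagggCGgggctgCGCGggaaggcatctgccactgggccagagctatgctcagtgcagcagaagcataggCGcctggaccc
Mef2c start 1: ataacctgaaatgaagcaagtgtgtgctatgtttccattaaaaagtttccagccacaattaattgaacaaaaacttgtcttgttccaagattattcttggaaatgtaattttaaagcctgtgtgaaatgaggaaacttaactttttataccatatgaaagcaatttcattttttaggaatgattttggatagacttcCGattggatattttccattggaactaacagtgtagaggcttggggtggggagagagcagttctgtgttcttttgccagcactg
Mef2c start 2: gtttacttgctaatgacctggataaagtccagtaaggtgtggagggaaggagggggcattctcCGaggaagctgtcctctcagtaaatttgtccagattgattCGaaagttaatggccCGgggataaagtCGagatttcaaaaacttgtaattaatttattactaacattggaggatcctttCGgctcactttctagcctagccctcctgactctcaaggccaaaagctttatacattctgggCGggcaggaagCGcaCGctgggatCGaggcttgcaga
Mef2c start 3: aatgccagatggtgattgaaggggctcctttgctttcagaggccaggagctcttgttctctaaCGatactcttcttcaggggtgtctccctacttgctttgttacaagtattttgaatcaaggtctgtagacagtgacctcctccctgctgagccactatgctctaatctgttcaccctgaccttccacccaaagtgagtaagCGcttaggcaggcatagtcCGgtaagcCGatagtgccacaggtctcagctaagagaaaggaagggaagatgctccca
Mef2d start 1: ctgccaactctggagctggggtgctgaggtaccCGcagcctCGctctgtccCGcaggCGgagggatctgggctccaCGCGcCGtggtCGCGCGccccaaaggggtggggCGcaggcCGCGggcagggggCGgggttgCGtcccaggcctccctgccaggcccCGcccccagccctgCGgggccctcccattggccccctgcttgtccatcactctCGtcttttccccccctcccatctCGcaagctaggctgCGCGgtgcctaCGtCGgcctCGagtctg

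Mef2a (gene ID 17258) spans 145 kb at chr7:67231163-67376456 on the minus strand. Its listed start, at 67372858, lies 3598 bp inside the 5′ boundary of the span. Mef2b (17259) spans 14.7 kb at chr8:70152761-70167488 on the plus strand and starts at its first base. The protein-coding gene model Gm45929 (chr8:70139499-70167488) covers all of Mef2b, so no peak inside Mef2b belongs to it alone. Mef2c (17260) spans 163 kb at chr13:83504017-83667079 on the plus strand, with 3 listed starts at 83504034, 83523656 and 83573607. Mef2d (17261) spans 30.2 kb at chr3:88141941-88172091 on the plus strand and starts at 88142372.

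Over windows of 300 bases, from 250 before to 50 after the start, Mef2a held 27 CpG and Mef2d 24, at the 85.8 and 81.6 percentile of 32851 start windows. Mef2b held 11. The upstream, middle and downstream starts of Mef2c held 1, 10 and 4. The middle start, the richest in CpG of the 3, was the one with H3K4me3. Of all start windows with a CpG number within 20% of the same value, 4.66% had a pooled H3K4me3 peak within 1 kb for the upstream Mef2c start, 43.1% for the middle start and 13.7% for the downstream start. For Mef2a, Mef2b and Mef2d the shares were 89.7%, 51.3% and 88.9%. Over all windows, 76% of those above the median of 7 CpG had H3K4me3 and 11.4% of the others. Genes with 2 or more listed starts numbered 4163, and in 747 of them (17.9%) some starts were marked and others not, as in Mef2c.

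**Figure D1:**
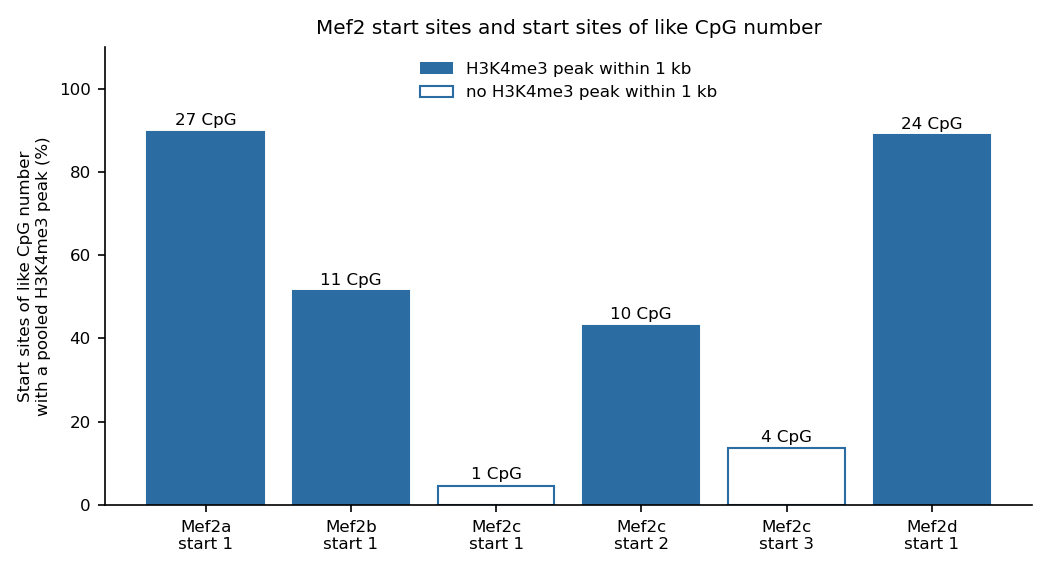
The bars give the percent of start sites with a like number of CpG (within 20%) that had a pooled cycling H3K4me3 peak within 1 kb, for each of the 6 listed Mef2 starts (x axis), with the CpG number above each bar. The 4 filled bars are marked Mef2 starts, and the 2 open bars, at 4.66% and 13.7%, are the unmarked upstream and downstream starts of Mef2c.

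The MEF2 consensus, searched on both strands by its name in its usual 10-base form, occurred in 1047 of the 32851 windows (3.19%). Among the 6 Mef2 windows it was found at Mef2a alone. There it reads CTAAAAATAG on the minus strand at chr7:67372851-67372860, from base -2 to base 7 when the start is base 0, and it can be read near the end of the Mef2a sequence above. The E-box CANNTG, the element of the MyoD family (a palindrome, so both strands are searched at once), was in 72.3% of all windows, with 2 matches at Mef2b, 2 at the upstream and 1 at the downstream Mef2c start, and 0 at Mef2a, Mef2d and the middle Mef2c start. A match is a run of letters and not evidence of binding.

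All 4 genes had an H3K4me3 peak in the pooled cycling list, where 35.9% of all genes and 60.9% of protein-coding genes had one. Mef2a, Mef2c and Mef2d had a peak in all 7 H3K4me3 libraries, as 28.9% of all genes and 53.2% of protein-coding genes did. Mef2d alone had PSME3, in the pooled list and in cycling replicate 3. Of all genes, 11.8% had a pooled PSME3 peak, and of protein-coding genes 21.9%. No Mef2 gene had PSME3 in a day 2 library, where 0.598% of all genes had a peak in any of the 4.

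**Figure D2:**
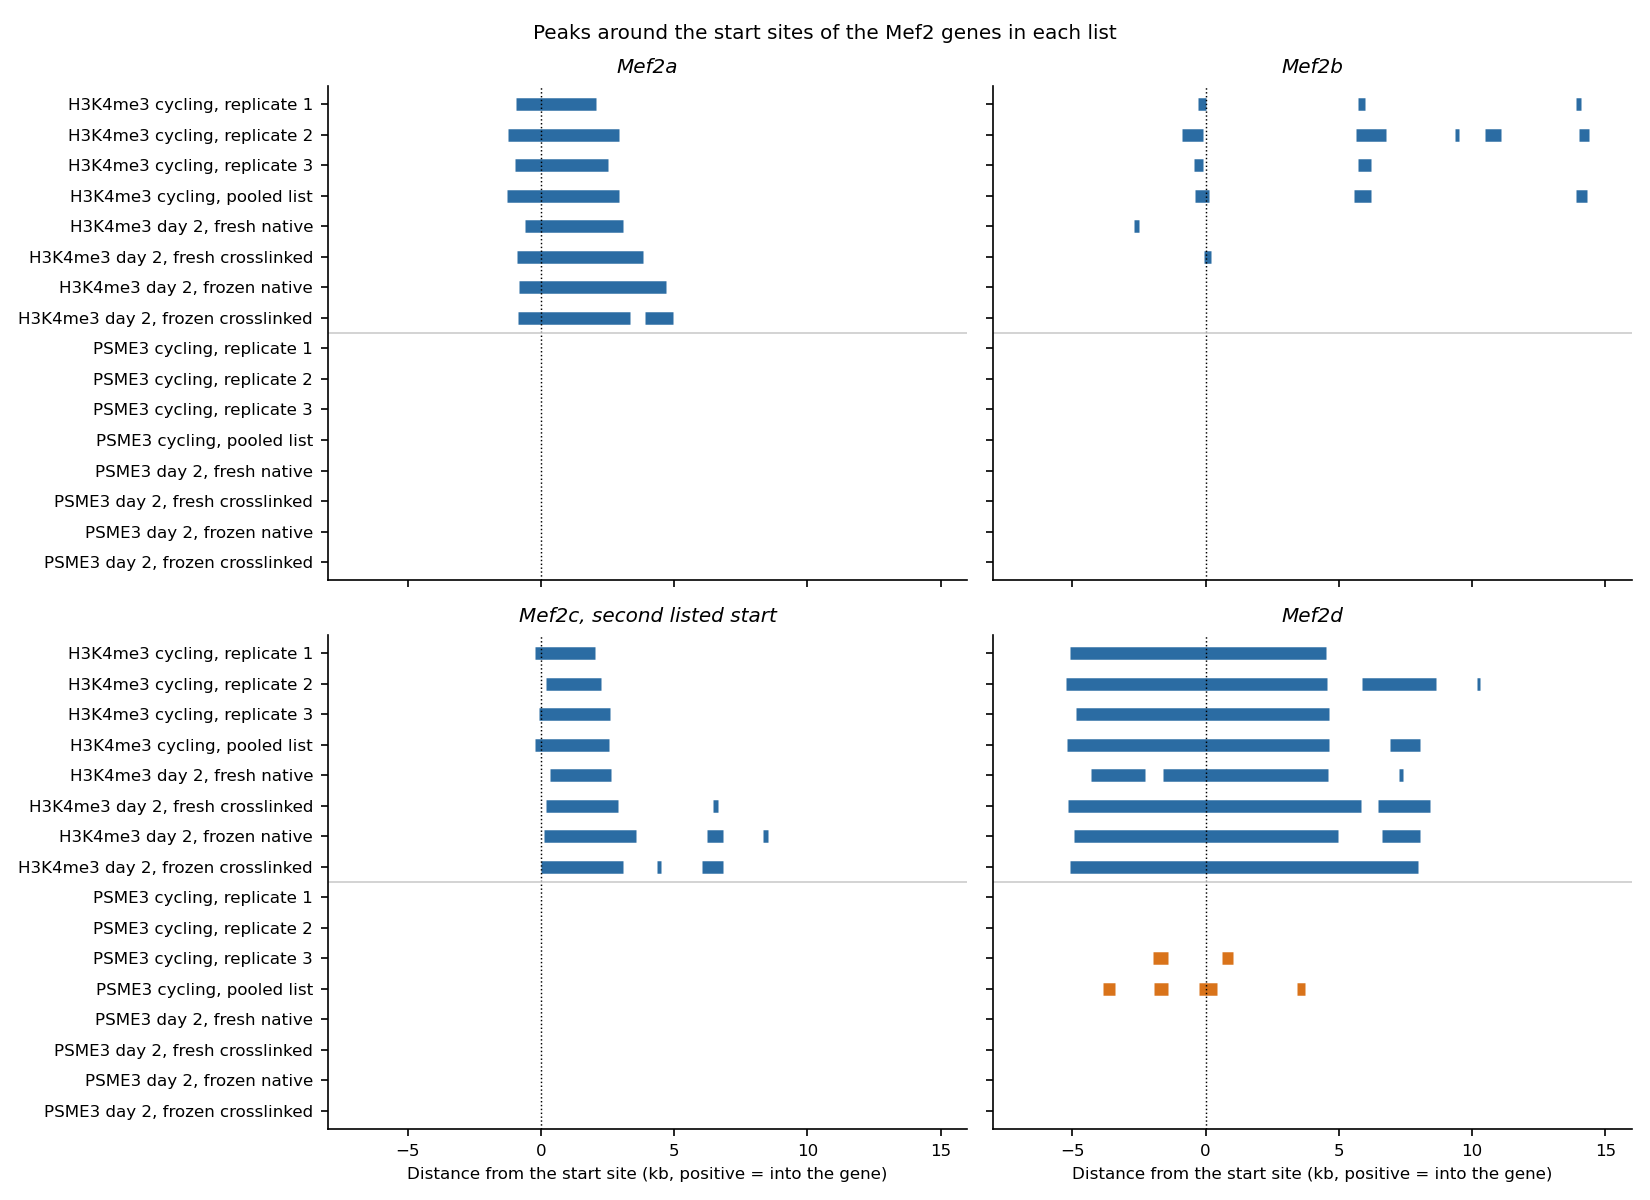
Peaks of the 16 lists (rows) around the start site of each gene, with the distance from the start in kb on the x axis, H3K4me3 in blue and PSME3 in orange. Peaks outside the frame of -8 to 16 kb are not drawn, and PSME3 peaks appear in the Mef2d panel only, in cycling replicate 3 and the pooled list.

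Mef2d, a broadly expressed member, carried the widest H3K4me3 domain of the family. In the pooled cycling list it ran from 88137171 to 88146982, over 9812 bp, from 5.2 kb before to 4.61 kb after the start, with a fold enrichment of 17.4. Only 131 of the 23663 pooled H3K4me3 peaks were wider. The domain was 9605, 9781 and 9504 bp wide in cycling replicates 1, 2 and 3. On day 2 it was 10976 bp wide in the fresh crosslinked, 9898 bp in the frozen native and 13051 bp in the frozen crosslinked library. The fresh native library had it in pieces of 2049 and 6173 bp. Its width thus lay at or above the 99.3 percentile of its list in all 7 libraries, with the longer piece taken for the fresh native one. A weak peak of 1099 bp with a fold enrichment of 2.1 lay farther inside the gene, at 88149303-88150401, and the frozen crosslinked domain took in most of that stretch. A further pooled peak at 88176666-88178576 lay beyond the 1 kb window, at the lncRNA gene 1700113A16Rik.

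PSME3 at Mef2d took the form of several short peaks inside that domain. The pooled list held 3 within 1 kb of the gene, at 88140443-88140952 (fold enrichment 3.08, q = 0.00142), 88142130-88142792 (2.62, q = 0.0267) and 88145786-88146106 (2.74, q = 0.0194). The middle one covered the start, from 242 bp before to 420 bp after it. Another PSME3 peak, at 88138536-88138982 (2.76, q = 0.0258), lay farther upstream but inside the same domain. All 4 lay 100% within the H3K4me3 peak. In fold enrichment they stood at the 27.2, 67.2, 10 and 23.3 percentile of the pooled PSME3 list, in the order of their positions, so 3 of the 4 were below its median.

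The single replicates give less. Cycling replicate 3 held PSME3 peaks at 88140395-88140953 (fold enrichment 3.41, q = 0.0215) and at 88142987-88143408 (3.05, q = 0.084), and replicates 1 and 2 held none. Of the pooled peaks, only the one at 88140443 overlapped a replicate peak. Replicate 3 has the longest PSME3 list, and 13.4% of protein-coding genes had a peak in it. PSME3 covered 0, 0 and 435 bp of Mef2d in replicates 1, 2 and 3, a mean of 145 ± 251 bp (SD, n = 3), and 0 bp in each day 2 library. The groups overlapped, the exact two-sided permutation test gave p = 0.857 (adjusted p = 0.861 over 4340 genes), and without replicate 3 the difference was 0. With q-values of at most 0.05 only 13 bp remained in replicate 3 and the difference was 4.33 bp, since the peak at 88142987 has a larger q and the other lies almost wholly outside the window.

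Of the 23663 pooled H3K4me3 peaks 3 (0.0127%) held 4 or more PSME3 peaks, and the Mef2d domain was one of them. The number 4 was set by the count at Mef2d. All 3 were among the 302 peaks of 8000 bp or more. By genes, 97 of 21900 protein-coding genes (0.443%) had 3 or more within 1 kb. The presence of any PSME3 peak also moved with width. The share of H3K4me3 peaks that overlapped PSME3 was 4.61% below 500 bp, 28.2% from 2000 to 3000 bp, 45.9% from 4000 to 6000 bp and 62.9% from 8000 bp up. Among the 254 peaks within 20% of the width of the Mef2d domain, 153 (60.2%) held PSME3 and 1 (0.394%), the Mef2d domain itself, held 4 or more.

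**Figure D3:**
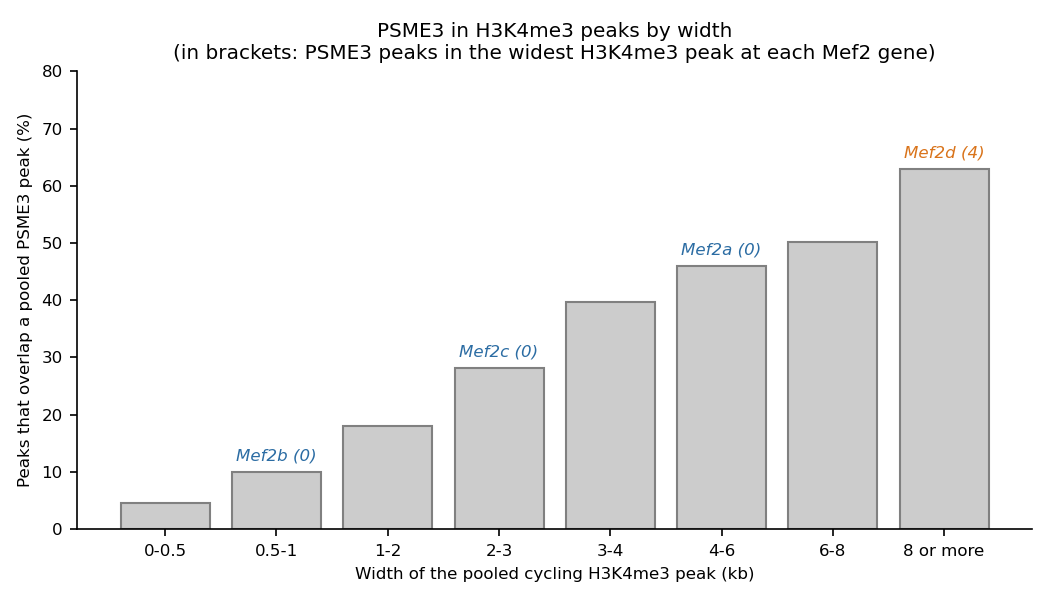
Percent of pooled cycling H3K4me3 peaks that overlap a pooled PSME3 peak (y axis) by width of the H3K4me3 peak in kb (x axis), with each Mef2 gene placed by its widest H3K4me3 peak and its number of PSME3 peaks in brackets. The share rises from 4.61% to 62.9%, and Mef2d, with 4 PSME3 peaks, falls in the widest class.

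Mef2a, Mef2b and Mef2c had no PSME3 peak in any of the 8 PSME3 lists. By width alone this was not unusual: of pooled H3K4me3 peaks as wide as their widest ones (within 20%), 42.3%, 9.07% and 31.7% held PSME3. With no read numbers, PSME3 below the threshold of the lists cannot be seen.

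Mef2a, which takes part in muscle differentiation, had 1 broad H3K4me3 peak over its listed start. The pooled peak ran over 4179 bp from 67369936 to 67374114, with a fold enrichment of 13.2, and did not reach the 5′ boundary of the span at 67376456. It was 3025, 4173 and 3504 bp wide in cycling replicates 1, 2 and 3, and 3687 and 4722 bp in the fresh native and fresh crosslinked day 2 libraries and 5522 and 4203 bp in the frozen native and frozen crosslinked ones. The frozen crosslinked library had a further peak of 1067 bp downstream of it. A pooled peak of 308 bp inside the gene, at 67283798-67284105 (fold enrichment 2.86), was found in replicate 2 only among the libraries.

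Mef2c, which is needed early in heart and skeletal muscle development, was marked at its middle start in all 7 libraries and at the upstream and downstream starts in none. The pooled peak ran over 2784 bp from 83523419 to 83526202, with a fold enrichment of 7.27, lower than at Mef2a and Mef2d in the same list. It lay almost wholly downstream of the start. In 2 of 3 cycling and 0 of 4 day 2 libraries it covered the start base itself, and in the others it began 11 to 332 bp downstream of that start. Weak pooled peaks farther inside, at 83604045-83604978 (2.14) and 83652093-83652411 (2.41), lay within the lncRNA genes Gm52043 and Gm52044. Neither was found in any cycling replicate, and the first site had a peak in both frozen day 2 libraries. On day 2, 3 of 4 libraries had an additional weak peak 6.05 to 6.84 kb downstream of the middle start, of 182 bp in fresh crosslinked, 589 bp in frozen native and 783 bp in frozen crosslinked cells. No cycling list had a peak there. In fold enrichment these peaks stood at the 5.63, 5.66 and 30.5 percentile of their lists. How many genes had such a weak peak on day 2 only was not counted.

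Mef2b, the shortest gene of the family, had weak peaks only. The pooled peak at its start was 543 bp wide (70152344-70152886, fold enrichment 3.04), and 2 others lay inside, at 70158331-70158968 (2.74) and 70166686-70167081 (2.42). A peak within 1 kb of the start was found in 3 of 3 cycling libraries, of 303, 807 and 332 bp, and in 1 of 4 day 2 libraries, fresh crosslinked, of 248 bp. The nearest strong peak, at 70171872-70174579 (fold enrichment 10.3), lay outside the 1 kb window at Tmem161a.

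The libraries of both stages were then compared by the length of each gene and its 1 kb flanks that lay under H3K4me3 peaks. Day 2 values are given with the fresh preparations first and, within each storage, native before crosslinked. With 3 against 4 libraries the smallest two-sided p of the exact permutation test is 0.0571. Of the 20292 genes with a peak in any of the 7 libraries, 33.3% had every day 2 value below every cycling value and 0.853% had every one above. No gene had an adjusted p below 0.05, and 6933 had the smallest unadjusted p.

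Mef2b had 758, 3187 and 814 bp under peaks in the cycling replicates, and 0, 248, 0 and 0 bp on day 2. All day 2 values lay below all cycling ones, a pattern shared with the 33.3% given above. The means were 1586 ± 1387 bp (SD, n = 3) and 62 ± 124 bp (SD, n = 4), and the exact permutation test gave p = 0.0571, the smallest possible (adjusted p = 0.167). Without replicate 2 the difference of 1524 bp was 724 bp, in the same direction. It was 469 bp with all lists cut to the length of the shortest and 419 bp within 1 kb of the start.

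The other 3 genes had higher means on day 2, with overlap between the stages. Mef2a had 3025, 4402 and 3504 bp in cycling cells and 3687, 4722, 5522 and 5270 bp on day 2 (3644 ± 699, n = 3, against 4800 ± 814, n = 4, SD; exact permutation p = 0.114, adjusted p = 0.259). Mef2c had 2272, 2040 and 2694 bp and then 2300, 2897, 4583 and 4992 bp (2335 ± 332 against 3693 ± 1298, exact permutation p = 0.114, adjusted p = 0.259). Mef2d had 5957, 8897 and 6055 bp and then 6165, 9414, 7795 and 9730 bp (6970 ± 1670 against 8276 ± 1643, exact permutation p = 0.286, adjusted p = 0.465). In each of these genes the lowest day 2 value was the fresh native one, which came from the shortest H3K4me3 list. The difference at Mef2d, -1306 bp for cycling minus day 2, was -2270 bp without cycling replicate 2, and -800 and -849 bp without replicates 1 and 3. It was -2010 bp without the fresh native library, and -822 bp without the frozen crosslinked one. With native day 2 libraries only it was -10.3 bp (exact permutation p = 1), and with peaks assigned by their centre -438 bp. With all lists cut to the 14372 peaks of the shortest it was -2195 bp (exact permutation p = 0.0571), and the overlap was gone: cycling values were 5957, 5975 and 6055 bp, and day 2 values 6165, 9414, 7795 and 9387 bp. With lists of that length 1.46% of 17044 genes had every day 2 value above every cycling value. At Mef2c the difference of -1358 bp was -2452 bp with frozen day 2 libraries only. Within 1 kb of the listed starts alone, cycling values were on average 185 bp higher at Mef2a and 197 bp higher at Mef2c, the opposite sign. In that window every cycling value at Mef2a lay above every day 2 value (exact permutation p = 0.0571, the smallest possible for 3 against 4), as at 21.1% of the 15072 listed starts with H3K4me3 in that window, and at Mef2c the values overlapped (exact permutation p = 0.286).

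**Figure D4:**
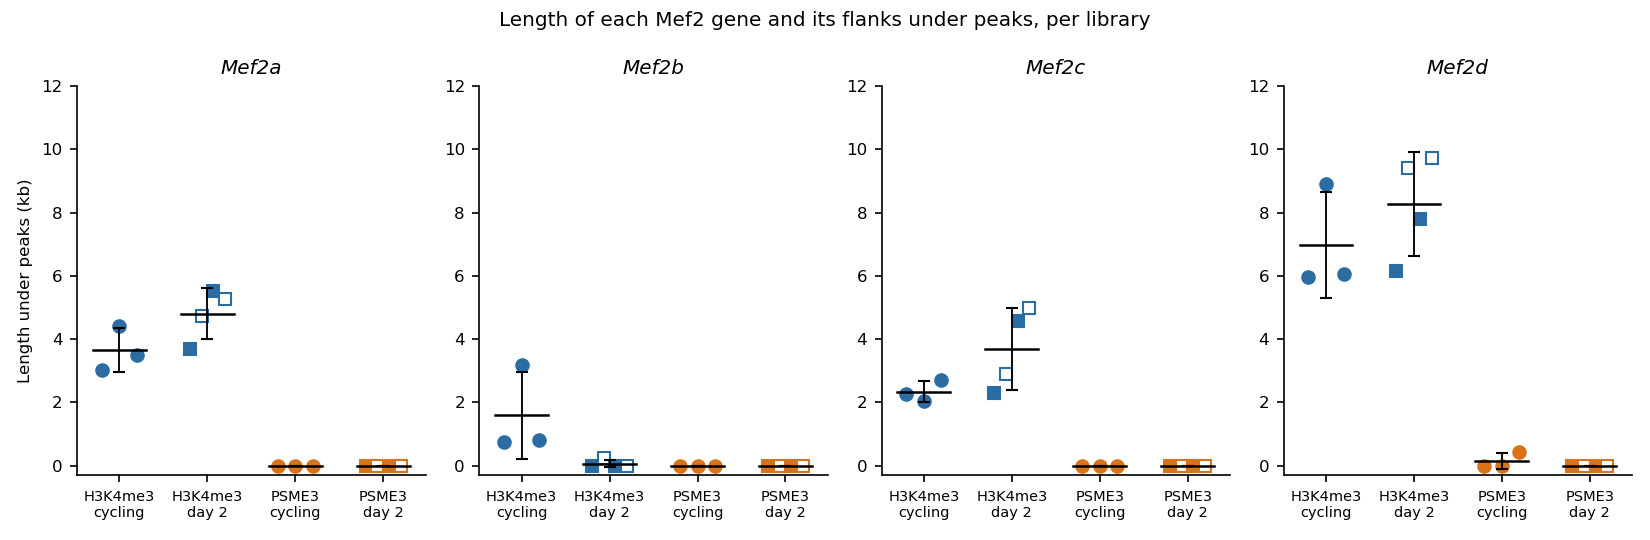
Length in kb of each gene with 1 kb flanks that lay under peaks (y axis), by antibody and stage (x axis), with 1 point per library. Circles are cycling and squares day 2 libraries, open squares are crosslinked, and lines and bars are the mean and SD (n = 3 or 4). The cycling libraries of Mef2b lie between 758 and 3187 bp and its day 2 libraries at 248 bp or less, and PSME3 is above 0 at Mef2d only, in 1 library.

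The strength of the strongest H3K4me3 peak, as its percentile in its own list, put the genes in a fixed order in cycling cells. In replicates 1, 2 and 3, Mef2d stood at 77.8, 92 and 80.1, Mef2a at 58.9, 79.3 and 59.6, Mef2c at 40.5, 75 and 48.4, and Mef2b at 23.6, 72.4 and 28.8. The order was the same in each replicate, although the ranges overlap because replicate 2, with its many weak peaks, places all genes high. On day 2, Mef2d stood at 88.1, 78.4, 80.9 and 70.5, Mef2a at 51.4, 61.4, 52.9 and 66.1, Mef2c at 39.2, 52.6, 43.7 and 56.6, and Mef2b at 40.1 in the fresh crosslinked library and 0 (no peak) in the other 3. The same order thus held in each day 2 library. Between stages the mean percentiles overlapped for all 4 genes, with exact permutation p = 0.571 for Mef2d, p = 0.4 for Mef2a, p = 0.629 for Mef2c and p = 0.171 for Mef2b. The mean difference, cycling minus day 2, was 6.65 points at Mef2c and 3.8 at Mef2d, and without cycling replicate 2 it was -3.54 and -0.566. With lists of equal length the direction at Mef2c turned and the overlap was lost, with percentiles of 25.2, 28.8 and 30.5 in cycling cells and 39.2, 33.3, 39.5 and 38.9 on day 2 (difference -9.57, exact permutation p = 0.0571), a pattern that 8.95% of genes had there. Over all genes, 16.5% had all day 2 percentiles below all cycling ones and 1.03% above.

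The peak edges, which were examined only once the values above were known, were compared next. At Mef2a the downstream edge of the H3K4me3 peaks near the start lay at 2076, 2952 and 2523 bp in cycling replicates, and at 3104, 3839, 4687 and 3336 bp on day 2. At the middle start of Mef2c it lay at 2034, 2244 and 2612 bp, and on day 2 at 2631, 2908, 3562 and 3070 bp. At both genes every day 2 library reached farther into the gene than every cycling library, at Mef2c by only 19 bp for the nearest pair. This held for 1.55% of the 12193 start sites with a peak in all 7 libraries.

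The mean edge moved by 1224 bp at Mef2a and 746 bp at Mef2c (exact permutation p = 0.0571 for each, the smallest possible, adjusted p = 0.162), while the median change over all starts was -254 bp. In the frozen native library, prepared as the cycling cells were, the edge lay 2170 bp beyond the cycling mean at Mef2a and 1265 bp at Mef2c, against a median of -202 bp over all starts. There 10.2% of starts exceeded all 3 cycling values. Without cycling replicate 2 the shift was 1442 bp at Mef2a and 720 bp at Mef2c.

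Mef2d had its downstream edge within 98 bp in the 3 cycling replicates, at 4525, 4543 and 4623 bp. On day 2 it lay at 4577, 5828, 4946 and 7955 bp. The groups overlapped through the fresh native library (mean change 1263 bp, exact permutation p = 0.114, adjusted p = 0.243), and without the frozen crosslinked library the change was 553 bp. The upstream edges did not extend. At Mef2a the mean moved from 1049 ± 149 bp (SD, n = 3) before the start to 791 ± 141 bp (SD, n = 4), with all day 2 libraries nearer to the start, as at 27.8% of all starts. All day 2 libraries reaching farther upstream was seen at 0.32% of starts and at none of the Mef2 genes. The upstream change was -197 bp at Mef2c, and -319 to -97.8 bp with 1 library left out. At Mef2d it was -868 bp, and -1 bp without the fresh native library, whose domain is broken.

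**Figure D5:**
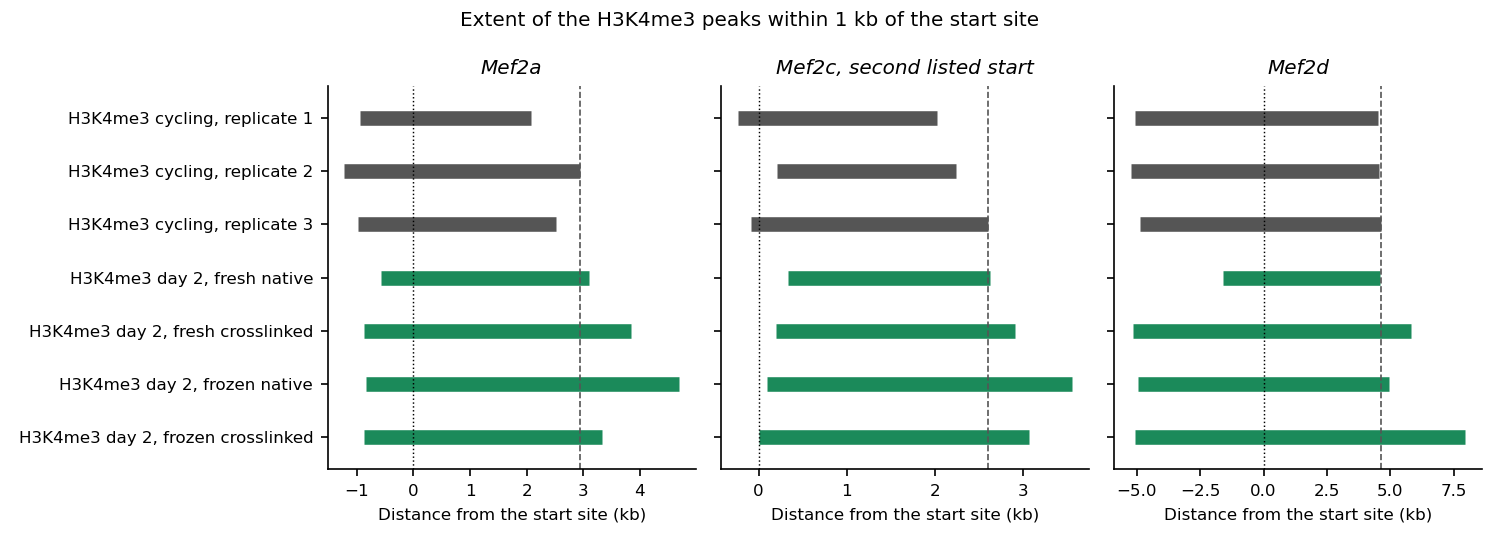
Extent of the H3K4me3 peaks within 1 kb of the start (x axis, kb from the start, with a scale of its own in each panel) in each library (rows), cycling in grey and day 2 in green. The dashed line marks the farthest cycling edge: every day 2 bar passes it at Mef2a and Mef2c, and 3 of 4 do at Mef2d.

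The covered lengths of H3K4me3 and PSME3 in cycling cells were also set side by side. PSME3 was at 0 bp at Mef2a, Mef2b and Mef2c in every library, and its lists hold 776 to 3070 short peaks against 18077 to 40999 for H3K4me3, so the direction was given by the lists. H3K4me3 exceeded PSME3 without overlap at 82.1% of the 19770 genes with either peak, and by a mean of 6825 bp at Mef2d.

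The genes nearest to each member in the percentiles of all 14 libraries were described by Euclidean distance, in percentile points. For Mef2a they were Abcg2 (5.46), Dnajc3 (5.69) and Sobp (5.99). For Mef2c they were Sorbs2 (4.18), Ckb (4.74) and Foxo6 (5.39). For Mef2d they were Tmem184b (9.72), Btrc (13) and Coro7 (16.4). Each had PSME3 in 1 cycling library as Mef2d did, which the ranking favours because the distance includes the PSME3 libraries. For Mef2b the nearest genes were Sybu (12.4), Ccdc172 (13.9) and Wdr66 (14.8). Within the family Mef2a and Mef2c were the nearest pair (29.7) and Mef2b and Mef2d the farthest (165).

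Around the family, 48 genes of the MEF2 pathway were examined, and 43 (89.6%) had a pooled H3K4me3 peak and 22 (45.8%) a pooled PSME3 peak. Of all protein-coding genes 60.9% and 21.9% had these peaks, and the counts of each list that follow stand beside those shares. The lists are small and were not tested. The 21.9% covers protein-coding genes with and without H3K4me3, and the share with PSME3 among marked genes was not taken. All 7 class IIa deacetylases and corepressors had H3K4me3 and 5 had PSME3. Among these were the deacetylases Hdac4 (2 peaks), Hdac5 and Hdac9 (1 each) and the corepressor Sin3a (2). Hdac4 and Sin3a had PSME3 in all 3 cycling replicates, and Sin3a also in 2 day 2 libraries, while Hdac5 and Hdac9 had it in 0 of the 3 replicates, so that their peaks stand in the pooled list alone.

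Of 14 genes that signal to MEF2, 13 had H3K4me3 and 6 PSME3. The kinase genes were Mapk7, Map2k3, Camk2d and Camk2g, and the calcineurin subunits Ppp3ca and Ppp3cb. Mapk14, which encodes the p38α kinase, had H3K4me3 in all 7 libraries and no PSME3. Of 9 coactivators, all had H3K4me3 and 3, Ep300, Carm1 and Ppargc1a, had PSME3, in 1, 2 and 0 of the cycling replicates. The highest pooled fold enrichment of PSME3 in these lists was 5.89, at the arginine methyltransferase gene Carm1.

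Of 5 immediate early genes downstream of MEF2, 4 had PSME3 in the pooled list (Jun, Nr4a1, Klf4 and Egr1), against 21.9% of protein-coding genes. Egr1 had it in all 3 cycling replicates and 2 day 2 libraries, Jun in 2 cycling replicates, and Nr4a1 and Klf4 in 0. Srf, the related MADS-box factor, had 2 pooled PSME3 peaks, with PSME3 in 2 cycling and 2 day 2 libraries, unlike the Mef2 genes. In all, 5 of the 48 genes had PSME3 in a day 2 library, beside 0.598% of all genes. That share is over genes of any type and was not taken for protein-coding genes alone, so it is no like background. In the pooled list PSME3 was at 11.8% of all genes and 21.9% of protein-coding genes.

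Of 12 muscle genes downstream of MEF2, 8 (66.7%) had pooled H3K4me3 and 3 (25%) PSME3 (Mb, Myom1 and Hspb7), near the shares of 60.9% and 21.9% over all protein-coding genes. Mstn, which encodes myostatin, had no H3K4me3 peak in any of the 7 libraries. In 4 of the 12, picked out after their values were seen, H3K4me3 was present in 4 of 4 day 2 libraries and in 0 of 3 cycling libraries. They were Myog (myogenin), Ckm (muscle creatine kinase), Smyd1 (a muscle methyltransferase) and Pgam2 (muscle phosphoglycerate mutase). The pooled cycling list did hold 1 weak H3K4me3 peak at Ckm, of 634 bp, at the 16.2 percentile of that list. Of all genes, 46 of 49980 genes (0.092%) had this pattern, and no Mef2 gene did.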

How the data were processed

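CUT&RUN peak lists of C2C12 cells were analysed for 14 libraries and 2 pooled cycling lists. IgG libraries (7) were left out, as no list of theirs was used here. Per the labels and methods, the authors used Trim Galore for trimming, Bowtie2 for alignment to mm10 and MACS2 for peak calling. Versions, options and the control library are not given in the sources used here. The lists deposited by the authors give each peak a fold enrichment (a ratio), a score, and −log10 values of p and q, with no read numbers. All listed q-values were below 0.1, so weaker signal is unseen and longer lists may hold weaker sites.

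Genes and starts were taken from RefSeq tables of GRCm38.p6, the same assembly as mm10. A peak was assigned when at least 1 bp lay within 1 kb of a span or start, and positions are 1-based. A gene without a peak was given the percentile 0. Libraries were compared by exact two-sided permutation tests of mean differences, with Benjamini-Hochberg adjustment over all genes with a peak in any library of the comparison, or over all starts with a peak in all 7 libraries, using Python 3.11.15, numpy 2.4.6, pandas 2.3.3 and scipy 1.17.1. The functions were tested on simulated data. The p-values measure the spread between libraries only.

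The members, gene lists and tests were chosen with earlier results of these data known. Genes named were the members, their 3 nearest protein-coding genes by percentile over 14 libraries, neighbours at member peaks, and in each list the genes with pooled PSME3 or with no H3K4me3 in any library. Mapk14, Neurod1 and the 4 muscle genes are exceptions, named after their values were seen, and 1 gene selected in this way is not reported here. Alternatives were stricter q-values, other windows, peak centres, lists of equal length, −log10 q in place of fold enrichment, replicate and preparation leave-outs, and a replicate block.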

Additional observations from a re-analysis of the deposited data

How the results depend on the processing

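The design fixes the smallest exact p at 0.0571 or more, so p-values say nothing here about stability. Within 1 kb of the listed starts alone, the cycling minus day 2 difference in H3K4me3 covered length was 185 bp at Mef2a (exact permutation p = 0.0571) and 197 bp at Mef2c (p = 0.286), opposite in sign to the whole-gene value, and 0 bp at Mef2d, where the window is full in every library. The difference in percentile of the strongest peak turned in sign with lists of equal length (-4.71 at Mef2a, p = 0.114, and -9.57 at Mef2c, p = 0.0571, by the exact permutation test), with a window of 5 kb (-3.25 at Mef2b, where 4 of 4 day 2 libraries then had a peak, that of Tmem161a), and with native day 2 libraries only (-1.24 at Mef2d). Leaving out 1 library gave percentile differences of 1.31 to 11.5 at Mef2a, 16.2 to 41.6 at Mef2b, -3.54 to 13.7 at Mef2c and -0.566 to 6.68 at Mef2d, with the negative values without cycling replicate 2. It gave PSME3 differences of 0 to 218 bp at Mef2d. The downstream edge at Mef2d moved by 198 bp with native day 2 libraries only and by 1887 bp with frozen ones only.

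The PSME3 result at Mef2d rests on weak peaks. At a q of at most 0.05 the difference in covered length was 4.33 bp in place of 145 bp. At a q of at most 0.01 the difference in covered length was 0 bp, 0 of 3 cycling libraries had a peak, and 1 pooled peak was left. With lists cut to 18 peaks the difference was 0 bp by construction, since the strongest Mef2d peak of replicate 3, at the 24.8 percentile of its list, could not be among them, and this value is no check of the result. Of the pooled PSME3 peaks 1 lay within 1 kb of the start, and 0 were found in at least 2 replicates. With the same start window or the same rule of at least 2 replicates, 1 pooled H3K4me3 peak was left at each of Mef2a, Mef2c and Mef2d, and within 1 kb of the start 1 at Mef2b.

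The PSME3 and H3K4me3 libraries share replicate numbers. The deviations of same-numbered libraries had a Pearson r of -0.0462, 0.0358 and 0.0967 over 4265 genes. Differently numbered libraries had an r of -0.116 to 0.0937. With short PSME3 lists such values cannot tell whether same-numbered libraries were paired, so the comparison is given without and with a replicate block. The cycling covered length of H3K4me3 minus PSME3 was 3644, 1586, 2335 and 6825 bp at Mef2a, Mef2b, Mef2c and Mef2d (exact permutation p = 0.1 each, the smallest for 3 against 3). With a replicate block these differences each had an exact sign-flip p = 0.25, the smallest that 3 pairs allow. Without replicate 2 the difference at Mef2b was 786 bp.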
